A study of Homo sapiens with 6 samples.

Results

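NPPB, LRRC15, GLYATL3, INSL4, ENAM, PARVG, GNGT2, RDUR and LNCOG were close to silent in OVCAR5 cells kept in solvent and carried counts in every library of cells given NTX301. They are 9 of the 62656 genes in the tables. The genes were chosen by their measured counts, 20 or fewer summed over the DMSO libraries and many more with NTX301, and were taken from a list of names. Their own levels are therefore given as a description with no test. OVCAR5 is an established human cell line, labelled here as an ovarian cancer model. The cells received 100 nM NTX301 for 3 days or dimethyl sulfoxide (DMSO), the solvent, for the same time, with 3 RNA-seq libraries per treatment. The series' title calls NTX301 a DNA hypomethylating agent. All 6 libraries come from this cell line, and no label ties a library to a culture of its own. The p-values below therefore rest on library-to-library spread, part or all of which may be technical.

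Cytosines followed by guanine (CpG sites) carry methyl groups over much of the genome, and DNA methyltransferases copy these marks to the new strand when a cell divides. Methylated promoters that are rich in CpG sites are usually silent. Drugs that lower methylation let the marks fade as cells divide, and genes that belong to other tissues are among those that can become active. By usual description, the products of the 9 genes include a heart hormone, a placental peptide, an enamel protein and a cone photoreceptor subunit. The others are a leukocyte adaptor, a fibroblast surface protein, a relative of an enzyme of liver and kidney, and a pair of long non-coding RNAs. Normal sites of expression were not examined here, and no tissue is given for the RNA pair. Methylation was not measured in the tables used here.

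The libraries held 22131116 to 25743669 estimated counts. All 9 markers of simple epithelium in the check list were tested and present, as the label of the cells asks: their summed level was 4246 to 4561 CPM (counts relative to the scaled library total) in the DMSO libraries and 2274 to 2392 CPM in the NTX301 libraries. Of 19029 genes tested with edgeR's quasi-likelihood test, 35.4% were higher and 35.1% were lower with NTX301 at a Benjamini-Hochberg adjusted p under 0.05. Without a scaling factor the median log2 change of all tested genes was 0.21 and 65.0% of the calls were higher, against 50.2% with the scaling used, so the changes below are relative to the typical gene. In bulk RNA a larger share of cells with a transcript and more transcript per cell cannot be told apart.

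Promoter sequences were matched by symbol in the RefSeq table (GRCh38.p14) for 7 of the 9 genes. Windows for NPPB and GNGT2 were not printed. The window of PARVG was counted but not printed, since in GENCODE 29 it lies in the last exon of its neighbour PARVB. The 250 bases before the start annotated in RefSeq are shown for LRRC15 and RDUR, which had the most CpG sites among the other members, and for 3 genes with a single site, because CpG sites carry the methyl groups. For LNCOG the window reaches into its GENCODE 29 span, which begins at 76259839. Capitals mark each CpG. The windows are chr3:194369744-194369993 on the minus strand for LRRC15, chr3:101940609-101940858 on the plus strand for RDUR, chr9:5231169-5231418 on the plus strand for INSL4, chr6:49499673-49499922 on the plus strand for GLYATL3 and chr12:76259633-76259882 on the plus strand for LNCOG.
LRRC15: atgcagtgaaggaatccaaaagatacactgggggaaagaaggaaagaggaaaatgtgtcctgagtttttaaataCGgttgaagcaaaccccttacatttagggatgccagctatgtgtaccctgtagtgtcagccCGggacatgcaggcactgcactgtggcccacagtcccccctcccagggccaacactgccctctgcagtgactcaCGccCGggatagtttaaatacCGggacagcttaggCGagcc
RDUR: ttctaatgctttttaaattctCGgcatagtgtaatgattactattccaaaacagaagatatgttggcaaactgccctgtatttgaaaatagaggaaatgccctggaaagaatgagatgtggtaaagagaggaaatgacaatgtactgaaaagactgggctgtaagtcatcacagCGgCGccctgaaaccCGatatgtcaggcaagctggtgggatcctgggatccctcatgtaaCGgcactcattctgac
INSL4: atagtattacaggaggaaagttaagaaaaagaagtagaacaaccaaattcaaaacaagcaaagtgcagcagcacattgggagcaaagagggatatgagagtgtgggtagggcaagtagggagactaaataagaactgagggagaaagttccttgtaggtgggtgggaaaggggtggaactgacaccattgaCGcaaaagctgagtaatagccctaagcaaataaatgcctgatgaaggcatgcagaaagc
GLYATL3: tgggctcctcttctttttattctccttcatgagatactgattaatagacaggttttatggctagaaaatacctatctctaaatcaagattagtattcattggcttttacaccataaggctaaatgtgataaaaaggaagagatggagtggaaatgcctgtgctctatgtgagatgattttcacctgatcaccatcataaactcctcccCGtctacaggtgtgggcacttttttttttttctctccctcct
LNCOG: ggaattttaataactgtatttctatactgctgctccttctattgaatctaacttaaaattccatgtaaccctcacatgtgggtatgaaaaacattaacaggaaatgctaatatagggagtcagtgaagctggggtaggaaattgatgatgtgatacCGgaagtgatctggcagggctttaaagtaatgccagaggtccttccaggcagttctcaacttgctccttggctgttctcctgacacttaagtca

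The member windows held few CpG sites. PARVG had 8, LRRC15 6 and RDUR 5, the 2 annotated starts of ENAM had 2 and 1, and GLYATL3, INSL4 and LNCOG had 1 each. The median over 35114 promoter windows of the same length was 11, with quartiles at 3 and 23. All 8 member windows lay below the median, and 14.7% of all windows held 1 CpG or none, as in 4 of the genes. The ratio of observed to expected CpG ranged from 0.0967 in LNCOG to 0.546 in PARVG, against a median of 0.558. In all, 4 short motifs were searched on both strands. The AP-1 motif TGACTCA stood in the LRRC15 window and in 4.2% of all windows, directly before a CpG in the sequence above. The TATA box letters TATAAA and the E-box letters CACGTG stood in the PARVG window and in 10.7% and 6.35% of all windows. The cAMP response motif TGACGTCA stood in no member window and in 1.65% of all. A match describes letters only.

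In all 9 genes each NTX301 library lay above each DMSO library. That was so for 37.1% of the 19029 tested genes, and as the rule used this contrast, nothing is read from the members' count. The 9 genes together had 10, 12 and 19 counts in DMSO replicates 1, 2 and 3, and 727.7, 737.13 and 756.47 counts in NTX301 replicates 1, 2 and 3. Of the 27 single DMSO values, 25 were 3 counts or fewer. The exceptions were LRRC15 in DMSO replicates 2 and 3. All 9 passed the filter on low counts, which they did through the NTX301 libraries.

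**Figure D1:**
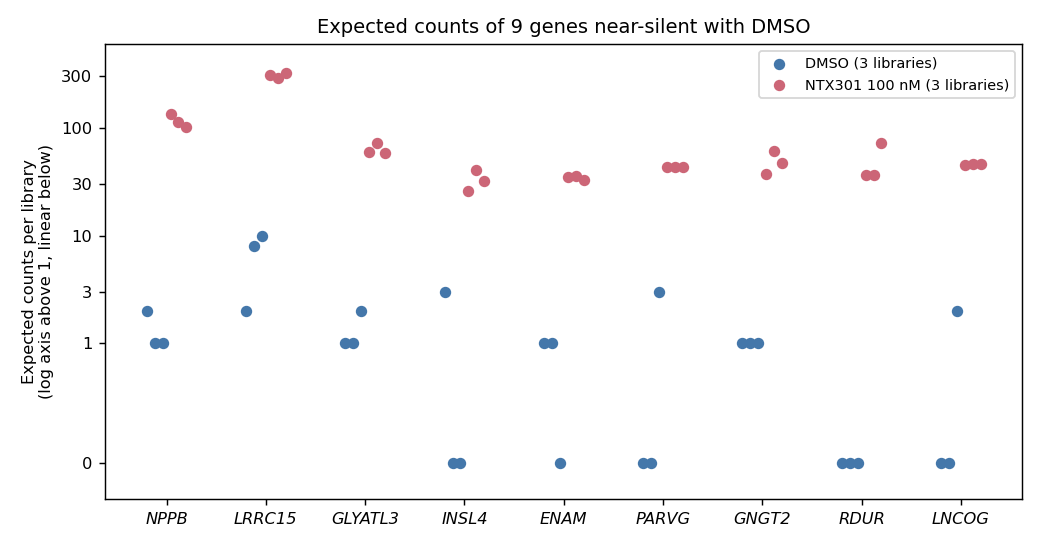
Expected counts per library (vertical axis, logarithmic above 1 and linear below) of the 9 genes, with 3 DMSO and 3 NTX301 libraries as points. DMSO points lie between 0 and 10 counts, and NTX301 points between 26 and 321.

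NPPB encodes the precursor of brain natriuretic peptide, a hormone of heart muscle that lowers blood pressure through a receptor guanylyl cyclase. The gene (ENSG00000120937.9, chromosome 1, 11857464 to 11858931 in GENCODE 29, GRCh38, minus strand) had 2, 1 and 1 counts with DMSO and 134, 113 and 102 with NTX301. All 6 values are whole. Its level was 0.0582 ± 0.0234 CPM with DMSO and 4.60 ± 0.730 CPM with NTX301 (mean ± SD, n = 3 each), a ratio of 78.4 (exact 95% counting interval 30.3 to 289). This interval, given in brackets after each later ratio, covers counting error only. NPPA, the atrial peptide gene and NPPB's nearest relative, lies 9.1 kb away and had 23 summed counts with DMSO and 18 with NTX301. Its ratio was 0.703 (0.358 to 1.36), so no difference of NPPA was detectable at this depth. NPPA (11845709 to 11848345) overlaps the end of CLCN6 (11806096 to 11848079) on the opposite strand. CLCN6 stood at 71.8 CPM with DMSO and 45.1 CPM with NTX301, a ratio of 0.628. Whether counts of NPPA are reads of CLCN6 was not tested.

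Of 12 other genes of the natriuretic peptide system, 10 were tested, 2 were higher and 6 lower (edgeR adjusted p under 0.05, median log2 change -0.50). Of all tested genes 35.4% were higher and 35.1% lower, the shares to hold beside this and each later list. NPR3, the receptor that clears these peptides, rose from 0.678 ± 0.220 to 4.83 ± 0.247 CPM (log2 2.81 ± 0.20, estimate ± SE, n = 3 each, adjusted p = 1.5e-07). NPPC, the C-type peptide, rose from 0.251 ± 0.0405 to 1.5 ± 0.0619 CPM (n = 3 each, adjusted p = 5.5e-06). With 6, 5 and 6 counts with DMSO, it passed the filter on low counts through the NTX301 libraries and could enter only as higher. The phosphodiesterase PDE5A, which breaks down the cGMP made by the receptors, fell from 8.84 ± 0.487 to 2.66 ± 0.400 CPM (adjusted p = 1.8e-07). Of the receptor genes, NPR2 was lower (log2 -0.69, adjusted p = 0.0008) and NPR1 was not called (log2 -0.11, adjusted p = 0.4858). Among 11 cardiac muscle markers, the myosin heavy chains MYH6 and MYH7 were at 0 in all libraries. The list's summed level was 5.34 to 6.29 CPM with DMSO and 10.3 to 12.2 CPM with NTX301. Of the 3 tested, 2 were higher. TNNC1, cardiac troponin C, rose from 3.24 ± 0.506 to 6.58 ± 1.27 CPM (n = 3 each, edgeR adjusted p = 0.0002). NKX2-5, a heart transcription factor chosen here after its values were seen, was the other, with 0, 0 and 0 counts with DMSO and 21, 24 and 29 with NTX301. NKX2-5 passed the filter on low counts through the NTX301 libraries and could enter only as higher. It was at least 22.2-fold higher with the DMSO group set at the floor of 3 counts, the number that a count of 0 allows (0.0439 CPM).

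INSL4 encodes a placental peptide of the relaxin and insulin-like family. The gene (ENSG00000120211.4, chromosome 9, 5231419 to 5235304, plus strand) had 3, 0 and 0 counts with DMSO and 26, 41 and 32 with NTX301, the lowest NTX301 sum of the 9 genes. All 3 DMSO counts lay in replicate 1. The means were 0.0425 ± 0.0736 and 1.3 ± 0.286 CPM (n = 3 each), a ratio of 29.7 (9.86 to 146). Other relaxin family genes share its part of chromosome 9. RLN2, relaxin 2, lies 64.6 kb away and rose from 0.481 ± 0.0416 to 1.65 ± 0.168 CPM (log2 1.76 ± 0.24, n = 3 each, edgeR adjusted p = 4.5e-05). RLN1, whose reads may be shared with its near-copy RLN2, lies 99.7 kb away and had 5 and 24.3 summed counts, a ratio of 4.31 (1.61 to 14.5), and was not tested. INSL6, 45.8 kb away on the other side, had 3 counts with DMSO and 1 with NTX301.

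RLN2 was the only tested gene among 10 other relaxin family peptides and receptors. INSL5 and the receptors RXFP2 and RXFP3 were at 0 in all 6 libraries. Of 18 trophoblast markers, 10 were tested, 6 were higher and 2 lower (median log2 change 0.81). Of all tested genes 35.4% were higher and 35.1% lower. CYP19A1, ADAM12 and CGB8, among the higher, had 6, 8 and 7.9 summed counts with DMSO and 62, 50 and 54.12 with NTX301. They passed the filter on low counts through the NTX301 libraries and could enter only as higher. The DMSO counts of CGB8 were 0, 0 and 7.9. Its reads may be shared with CGB3 and CGB5, whose counts were not whole either, so its count is uncertain. CGB3 had 32.69 summed counts with DMSO and 22.31 with NTX301, and CGB5 31.68 and 20.47, and neither was called. How reads were divided among these genes was not tested. The summed level of all 18 was 131 to 151 CPM with DMSO and 135 to 153 CPM with NTX301. Most of it came from PLAC8, named for placenta and singled out after its values were seen. PLAC8 was lower, from 134 ± 10.1 to 115 ± 7.76 CPM (n = 3 each, edgeR adjusted p = 0.0081), a call absent without a scaling factor and on log2(TPM + 1). The other 17 markers together had 222.3, 197.94 and 187.99 counts with DMSO and 802.92, 823.57 and 736.62 with NTX301. KISS1, the kisspeptin precursor, rose from 1.56 ± 0.349 to 21.4 ± 1.56 CPM (n = 3 each, adjusted p = 3.9e-10). PSG1, a pregnancy-specific glycoprotein with near-identical copies and hence an uncertain count, rose from 1.36 ± 0.263 to 2.45 ± 0.0101 CPM (adjusted p = 0.0019), and ERVFRD-1, a placental fusogen of retroviral origin, fell from 2.80 ± 0.559 to 1.22 ± 0.0743 CPM (adjusted p = 0.0002). The placental lactogen gene CSH1 and the envelope gene ERVV-1 were at 0 in all libraries, and CGA, the shared hormone alpha chain, had 0, 0 and 0 counts with DMSO and 1, 0 and 1 with NTX301.

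LRRC15 encodes a leucine-rich repeat membrane protein of activated fibroblasts, known to be induced by TGF-beta. The gene (ENSG00000172061.9, chromosome 3, 194355247 to 194369743, minus strand) had 2, 8 and 10 counts with DMSO and 311, 288 and 321 with NTX301. With 20 summed DMSO counts it stood exactly at the limit of the rule, and its NTX301 sum of 920 was the highest of all 43448 genes with 20 or fewer DMSO counts. Its mean went from 0.300 ± 0.200 to 12.1 ± 0.681 CPM (n = 3 each), a ratio of 41.3 (26.6 to 68.0), the narrowest interval of the 9 genes on a ratio scale. CPN2, a carboxypeptidase subunit 3.9 kb away on the same strand, had 0, 0 and 0 counts with DMSO and 6, 3 and 6 with NTX301, at least 4.49-fold higher with DMSO at that floor. On the other side GP5, 25.1 kb away, had 3 and 9 summed counts. The nearest tested genes were lower: LINC00887, a long non-coding RNA 42.4 kb away, fell from 6.67 ± 0.694 to 2.67 ± 0.370 CPM (edgeR adjusted p = 4.8e-06), and ATP13A3, a polyamine transporter 32.9 kb away, was lower by a log2 change of -0.34 ± 0.05, a call absent on log2(TPM + 1).

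Of 14 other activated fibroblast genes, 10 were tested, 7 were higher and 2 lower (median log2 change 1.44). Without a scaling factor none of them was lower. COMP, ADAM12 and THBS2, among the higher, had 1, 8 and 20.1 summed counts with DMSO and 54, 50 and 290.41 with NTX301. They passed the filter through NTX301 and could enter only as higher. Without the filter on low counts all 14 were fitted, 7 were higher and 2 lower, and the median was 1.15. TAGLN, a smooth muscle actin-binding protein, rose from 5.29 ± 0.308 to 55.4 ± 3.21 CPM (n = 3 each, adjusted p = 2.3e-11), THBS2, a matrix thrombospondin, from 0.287 ± 0.165 to 3.81 ± 0.392 CPM (adjusted p = 2.5e-07), and ACTA2, smooth muscle actin, from 0.608 ± 0.134 to 2.17 ± 0.238 CPM (adjusted p = 2.4e-05). Fibroblast activation protein (FAP), which marks the same cells as LRRC15, had 1, 0 and 0 counts with DMSO and 1, 3 and 3 with NTX301. Of 9 general fibroblast markers, 5 were tested, 4 were higher and 1 lower (0 lower without a scaling factor), with a summed level of 5.82 to 7.65 CPM with DMSO and 42.1 to 48.0 CPM with NTX301. COL3A1, among the 4 higher, had 17 summed counts with DMSO and 53 with NTX301 and also passed the filter through NTX301. COL6A3, a collagen VI chain, rose from 3.05 ± 0.402 to 28.7 ± 3.33 CPM (adjusted p = 5.2e-10), and the growth factor receptors PDGFRA and PDGFRB rose by 2.99 ± 0.18 and 2.97 ± 0.19 on the log2 scale. The defining marker PDPN was at 0 in all libraries. Decorin (DCN) had 1 count with DMSO and 6 with NTX301, THY1 1 and 3.39, and the collagen chain COL1A2 0 and 3. The part of these markers in the level of LRRC15 was not tested.

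PARVG encodes gamma-parvin, an adaptor that ties integrin-linked kinase to actin and is found mainly in blood cells. The gene (ENSG00000138964.17, chromosome 22, 44172956 to 44219533, plus strand) had 0, 0 and 3 counts with DMSO, all 3 in replicate 3, and 43.31, 43 and 43.52 with NTX301. The NTX301 libraries were close together, at 1.71 ± 0.0210 CPM against 0.0481 ± 0.0834 CPM with DMSO (n = 3 each), a ratio of 38.9 (13.0 to 191). Its paralogue PARVB, beta-parvin, ends 7 bases before PARVG begins on the same strand and was lower, from 27.6 ± 3.34 to 21.8 ± 1.56 CPM (log2 -0.35 ± 0.09, n = 3 each, edgeR adjusted p = 0.0034). That call was absent without a scaling factor and on log2(TPM + 1). SHISAL1, the next tested gene 24.1 kb beyond PARVG, rose from 0.401 ± 0.111 to 2.51 ± 0.486 CPM (log2 2.65 ± 0.27, adjusted p = 3.0e-06). It passed the filter on low counts through the NTX301 libraries and could enter only as higher.

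All 13 other genes of the parvin, kinase and kindlin complex were tested, and 6 were higher and 3 lower (median log2 change 0.10), with 0 lower without a scaling factor. FERMT3, the kindlin of blood cells, rose from 2.42 ± 0.267 to 16.9 ± 0.542 CPM (n = 3 each, adjusted p = 5.8e-10), LIMS2, a partner of integrin-linked kinase, from 1.35 ± 0.346 to 5.49 ± 0.791 CPM (adjusted p = 1.5e-06), and FERMT2, a kindlin of many tissues, from 56.1 ± 2.03 to 124 ± 1.46 CPM (adjusted p = 4.6e-10). Of 13 leukocyte markers, 6 were tested, 5 were higher and 1 lower, and their summed level went from 39.3 to 43.2 CPM with DMSO to 127 to 135 CPM with NTX301. LAPTM5, a lysosomal protein of blood cells, rose from 16.8 ± 1.18 to 70.9 ± 2.42 CPM (adjusted p = 8.8e-11), the actin bundler LCP1 from 2.19 ± 0.356 to 18 ± 1.96 CPM (adjusted p = 1.9e-09), and the actin regulator CORO1A from 2.25 ± 0.443 to 10.9 ± 0.523 CPM (adjusted p = 2.4e-08). PTPRC, the pan-leukocyte antigen CD45, had 0, 0 and 0 counts with DMSO and 0, 3 and 4 with NTX301, and CD48 was at 0 in all libraries. CD3E had 1 count, with NTX301. The lower gene was CD37, a tetraspanin, from 0.905 ± 0.0468 to 0.553 ± 0.0867 CPM (n = 3 each, adjusted p = 0.0327), a call kept with DESeq2's size factors in edgeR, on log2(TPM + 1) and without NTX301 replicate 1, and lost under every other alternative run, the replicate block included. The part of these markers in the level of PARVG was not tested.

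GNGT2 encodes the gamma subunit of the G protein of cone photoreceptors. The gene (ENSG00000167083.7, chromosome 17, 49202791 to 49210574, minus strand) had 1, 1 and 1 counts with DMSO and 37, 60.74 and 47.18 with NTX301. Its mean went from 0.0441 ± 0.00353 to 1.90 ± 0.458 CPM (n = 3 each), a ratio of 43.4 (14.6 to 213). ABI3, an adaptor of actin regulation in immune cells, starts within GNGT2 on the opposite strand (49210227 to 49223225) and rose from 0.374 ± 0.130 to 7.59 ± 0.253 CPM (log2 4.30 ± 0.19, n = 3 each, edgeR adjusted p = 2.4e-09). With 26 summed DMSO counts ABI3 lay just outside the limit of 20, and it passed the filter on low counts through the NTX301 libraries. PHOSPHO1, a phosphatase of bone mineralisation 12.8 kb away, rose from 1.04 ± 0.326 to 2.41 ± 0.248 CPM (adjusted p = 0.0006).

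Of 16 other G protein beta and gamma subunits, 13 were tested, 4 were higher and 5 lower. GNG7 fell from 12.8 ± 0.288 to 2.23 ± 0.385 CPM (n = 3 each, adjusted p = 4.5e-09), GNB5 from 91.0 ± 2.20 to 53.9 ± 1.26 CPM (adjusted p = 1.2e-08), and GNG5 rose from 44.4 ± 1.89 to 73.5 ± 4.62 CPM (adjusted p = 2.1e-07). GNGT1, the rod counterpart of GNGT2, had 1 count with DMSO and 1 with NTX301. Among 11 cone markers, the visual pigments OPN1LW and OPN1MW and the phosphodiesterase subunit PDE6H were at 0 in all libraries, and the summed level was 1.61 to 2.65 CPM with DMSO and 1.90 to 2.46 CPM with NTX301. GNB3 was the only tested cone marker and was not called (log2 0.05, adjusted p = 0.8673).

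ENAM encodes enamelin, a matrix protein of forming tooth enamel. The gene (ENSG00000132464.13, chromosome 4, 70628744 to 70686816, plus strand) had 1, 1 and 0 counts with DMSO and 35, 36 and 33 with NTX301. Its mean went from 0.0280 ± 0.0243 to 1.37 ± 0.0752 CPM (n = 3 each), a ratio of 46.7 (12.6 to 391). The flanking enamel genes did not share this level: AMBN, ameloblastin, 21.5 kb away, had 0 counts with DMSO and 2 with NTX301, and AMTN, amelotin, 96.0 kb away, had 1 and 0. JCHAIN, the joining chain of antibodies, lies within the span of ENAM on the opposite strand and had 2 and 0 counts. UTP3, a widely expressed ribosome biogenesis gene 1.7 kb past the end of ENAM, was higher by a log2 change of 0.28 ± 0.05 (39.6 ± 2.21 to 48.1 ± 1.86 CPM, n = 3 each, edgeR adjusted p = 0.0006).

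Of 12 other enamel genes, 3 were tested, and all 3 are also expressed outside teeth. TUFT1 rose from 21.8 ± 0.626 to 52.8 ± 3.07 CPM (n = 3 each, adjusted p = 2.4e-09), while FAM83H fell from 172 ± 3.99 to 82.9 ± 2.65 CPM (adjusted p = 7.1e-10) and WDR72 from 28.9 ± 0.654 to 21.1 ± 0.282 CPM (adjusted p = 6.5e-06). AMELX, amelogenin, was at 0 in all libraries. ODAPH, an enamel mineralisation gene, had 1, 0 and 2 counts with DMSO and 13, 10 and 6 with NTX301 and was too low to be tested. In the secretory phosphoprotein cluster of chromosome 4, to which ENAM belongs, 6 of 16 other genes were at 0 in all libraries. SPP1, osteopontin, was the only tested member and rose from 8.99 ± 1.38 to 18.3 ± 1.02 CPM (n = 3 each, adjusted p = 2.7e-06).

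GLYATL3 belongs to the glycine N-acyltransferases, enzymes that join acyl groups to glycine for excretion. The gene (ENSG00000203972.10, chromosome 6, 49499958 to 49527047, plus strand) had 1, 1 and 2 counts with DMSO and 60, 73 and 59 with NTX301. Its mean went from 0.0601 ± 0.0313 to 2.52 ± 0.303 CPM (n = 3 each), a ratio of 43.1 (16.6 to 160). The 4 other family members were too low to be tested and had 3 counts together with DMSO and 10 with NTX301. The gene lies between CENPQ, a centromere protein 6.9 kb away that rose from 7.25 ± 0.227 to 20.9 ± 2.03 CPM (n = 3 each, edgeR adjusted p = 2.4e-08), and C6orf141, 23.6 kb away, which fell by 0.73 ± 0.06 on the log2 scale.

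RDUR is a long non-coding RNA named for its dependence on RIG-I, a sensor of viral RNA. The gene (ENSG00000214407.3, chromosome 3, 101940859 to 101997926, plus strand) had 0, 0 and 0 counts with DMSO and 36.39, 36.39 and 72.77 with NTX301. With DMSO set at the floor of 3 counts for the group, it was at least 43.4-fold higher. Its spread with NTX301 was the widest of the 9 genes, at 1.90 ± 0.810 CPM (n = 3). Of 14 genes of the RIG-I pathway, 10 were tested, 5 were higher and 4 lower (median log2 change 0.13), and 2 were lower without a scaling factor. The count of higher genes became 4 without DMSO replicate 1 and without NTX301 replicate 3. RIGI, the gene of the sensor itself, rose from 21.8 ± 4.18 to 30.4 ± 2.16 CPM (log2 0.49 ± 0.11, n = 3 each, edgeR adjusted p = 0.0016). DHX58, a RIG-I relative, fell from 10.7 ± 1.12 to 2.81 ± 0.307 CPM (n = 3 each, edgeR adjusted p = 5.7e-08). The adaptor MAVS fell from 176 ± 1.65 to 121 ± 6.93 CPM (adjusted p = 4.6e-07), and the transcription factor IRF7 rose from 31.1 ± 1.56 to 49.8 ± 3.80 CPM (adjusted p = 1.4e-06). The interferon gene IFNB1 was at 0 in all libraries.

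Interferon-stimulated genes were tested in 18 of 18 cases, and 5 were higher and 8 lower (median log2 change -0.13). That order depends on the scaling: without a scaling factor 8 were higher, 6 lower and the median was 0.08, and on log2(TPM + 1) 8 were higher, 5 lower and the median was 0.10. Without DMSO replicate 3 the 5 became 3. IFI44L fell from 8.99 ± 0.556 to 3.17 ± 0.511 CPM (n = 3 each, adjusted p = 6.9e-07), OAS1 from 34.4 ± 2.24 to 13.0 ± 1.54 CPM (adjusted p = 2.6e-08), and the chemokine CXCL10 rose from 0.413 ± 0.106 to 1.13 ± 0.351 CPM (adjusted p = 0.0025). NFKBIZ, the nearest tested gene that does not overlap RDUR, at 79.8 kb, was lower by a log2 change of -1.38 ± 0.05.

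LNCOG is a long non-coding RNA named for osteogenesis. The gene (ENSG00000257219.6, chromosome 12, 76259839 to 76305131, plus strand) had 0, 0 and 2 counts with DMSO, both in replicate 3, and 45, 46 and 46 with NTX301. The NTX301 libraries lay within 1.01 times of each other at 1.80 ± 0.0136 CPM, against 0.0321 ± 0.0556 CPM with DMSO (n = 3 each), a ratio of 61.6 (16.7 to 513). Of 13 osteoblast genes, 8 were tested, 7 were higher and 0 lower (median log2 change 1.15). Of all tested genes 35.4% were higher and 35.1% lower. ALPL, among the 7, had 3 summed counts with DMSO and 47 with NTX301 and passed the filter through the NTX301 libraries. COL1A1, a chain of type I collagen, rose from 13.7 ± 0.172 to 48.3 ± 0.800 CPM (n = 3 each, edgeR adjusted p = 8.1e-11), the transcription factor MSX2 from 11.4 ± 1.05 to 30.2 ± 1.46 CPM (adjusted p = 9.4e-09), and the bone morphogenetic protein BMP2 from 3.85 ± 0.715 to 9.34 ± 0.476 CPM (adjusted p = 2.8e-06). The osteoblast transcription factor SP7 had 3 counts with DMSO and 3 with NTX301, and DLX5 and IBSP were at 0 in all libraries. No annotated gene overlaps LNCOG in GENCODE 29, and BBS10, 39.3 kb away, was higher by a log2 change of 0.53 ± 0.06.

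With so few DMSO counts, a single library weighs on a ratio. The log2 ratio of LNCOG was 5.94 and became 4.84 without DMSO replicate 3, where it had no DMSO count left and the floor applied. That of INSL4 was 4.89 and became 4.28, 4.27 and 4.37 without DMSO replicate 1, 2 or 3, that of PARVG was 5.28 and became 4.67, 4.66 and 4.76, and LNCOG's became 5.33 and 5.32 without DMSO replicate 1 or 2. RDUR's lower bound went from a log2 of 5.44 to 4.83 and 4.82 without DMSO replicate 1 or 2, because the floor of 3 counts then stands for fewer libraries.

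Counts that were not whole were found in 3 of the 9 genes, and each of the 3 overlaps another gene that was called higher. RDUR shares 1884 exon bases with ENSG00000241280, a long non-coding RNA on the same strand (101960358 to 101997926) with 2, 6 and 3 counts with DMSO and 54.61, 43.61 and 24.23 with NTX301. Added together, the pair gave whole numbers in every library: 2, 6 and 3 with DMSO and 91, 80 and 97 with NTX301. RDUR made up 40%, 45.5% and 75% of the sum in NTX301 replicates 1, 2 and 3 and 0% in the DMSO libraries. The locus as a whole varied less between NTX301 libraries than RDUR did, and its ratio was 21.9 (12 to 44.4), against at least 43.4 for RDUR alone.

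GNGT2 and ABI3 share 131 exon bases on opposite strands, and their counts also summed to whole numbers, 10, 13 and 6 with DMSO and 230, 257 and 235 with NTX301. GNGT2 made up 16.1%, 23.6% and 20.1% of the NTX301 sums. The ratio of the sum was 22.4 (15.4 to 33.6), close to that of ABI3 alone at 19.9. PARVG and ENSG00000279933, a gene of unsettled type within it on the opposite strand (44183031 to 44187739, 2988 exon bases shared), summed to 0, 0 and 3 with DMSO and 55, 60 and 58 with NTX301. Here PARVG made up 71.7% to 78.7% of the NTX301 counts, and the ratio of the sum was 51.8 (17.4 to 254). In the last 2 pairs the genes lie on opposite strands, and whether the counting used strand was not tested. The level of each gene alone is uncertain, while the sum does not depend on how counts were divided.

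**Figure D2:**
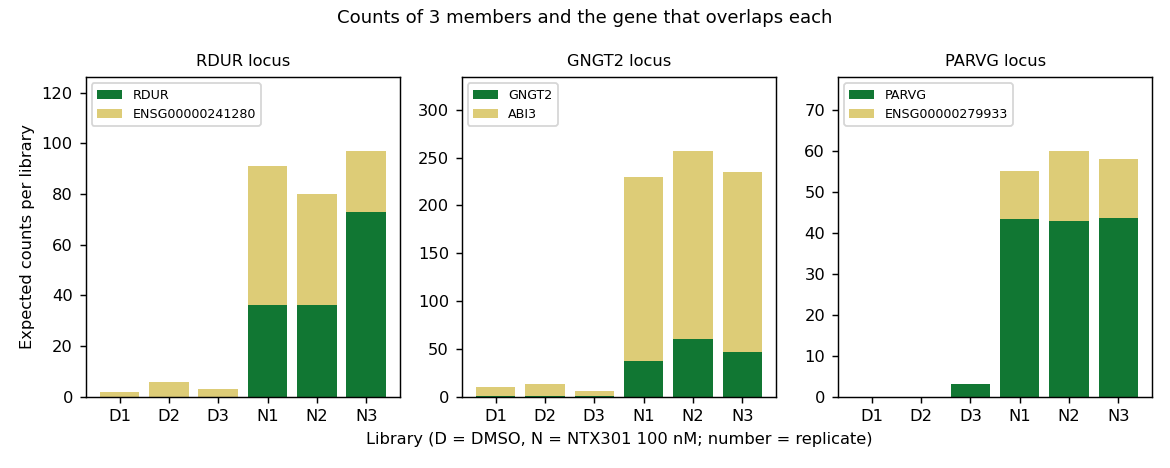
Expected counts per library (vertical axis, linear) of RDUR, GNGT2 and PARVG, each stacked with the gene that overlaps it. NTX301 bars reach 80 to 97, 230 to 257 and 55 to 60 counts in this order, and the division within the RDUR bars differs between replicates.

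On the length-scaled TPM values (as deposited, scaled by transcript length and library), which allow genes to be compared, NPPB was highest with NTX301 at 13.8 ± 1.95 TPM (n = 3), with libraries at 15.98, 13.07 and 12.27. GNGT2 followed at 4.37 ± 1.08 and LRRC15 at 4 ± 0.326 TPM, whose libraries overlapped. LNCOG was at 2.81 ± 0.150 TPM, below LRRC15 and above GLYATL3, the next gene, in every library. GLYATL3 at 2.28 ± 0.225, PARVG at 2.11 ± 0.261 and RDUR at 1.85 ± 0.832 TPM overlapped each other in turn. RDUR, with libraries at 1.39, 1.35 and 2.81 TPM, also overlapped LNCOG above it and INSL4 below it, the latter at 1.32 ± 0.275 TPM. ENAM was lowest at 0.463 ± 0.0115 TPM. The places of GNGT2, PARVG and RDUR rest on counts divided with an overlapping gene and are uncertain. LRRC15 led in counts, and NPPB led per length. With DMSO the highest level of NPPB in a library was 0.21 TPM.

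**Figure D3:**
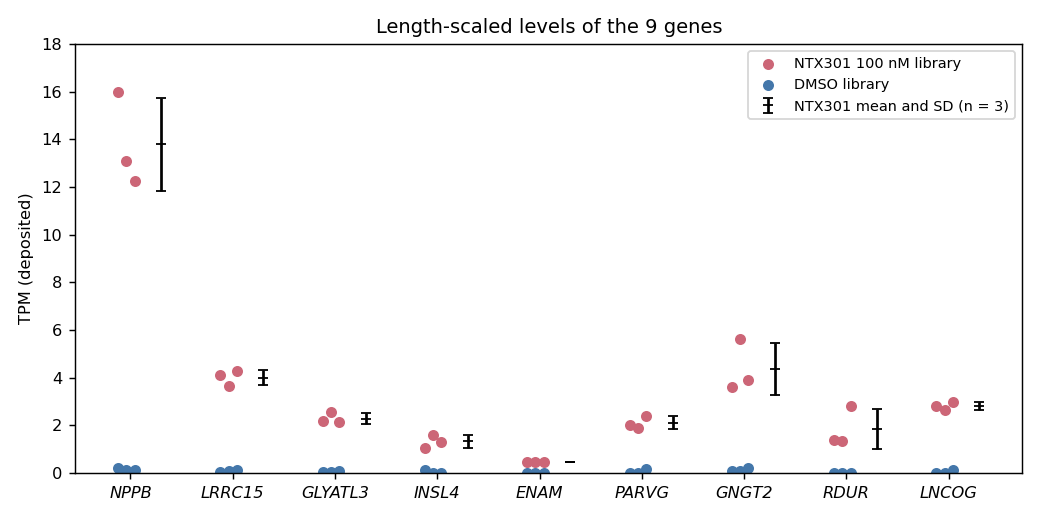
Deposited TPM (vertical axis, linear from 0) of the 9 genes in each library, with the NTX301 mean and SD over 3 libraries as a whisker. NPPB lies between 12.27 and 15.98 TPM with NTX301, above all others, and ENAM between 0.45 and 0.47.

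The 9 genes are a small choice from a large class. Of 43448 genes with 20 or fewer summed DMSO counts, 23818 had no count in any library, and 224 (0.516%) reached a mean of 1 CPM with NTX301. At least as many NTX301 counts as INSL4, the lowest of the 9 with 99, were seen in 143 genes of the class. Among the 224 the members ranked from 7 (NPPB) to 34 (INSL4) by ratio. Just outside the limit, with 23, 24 and 25 summed DMSO counts, stood PTPN7, IL1RL1 and SFTA1P with 422, 635 and 757 NTX301 counts, the first genes above 20 whose ratio reached 16. The 5 other genes of the class nearest to the mean profile of the 9, by Euclidean distance of log2(CPM + 0.1) over 6 libraries, were S1PR1 (0.33), MAF (0.55), C2orf78 (0.90), BATF3 (1.12) and C7orf57 (1.12). S1PR1, a sphingolipid receptor, had 1, 1 and 2 counts with DMSO and 68, 60 and 63 with NTX301, and MAF, a transcription factor, 1, 2 and 1 and 65, 53 and 62. GLYATL3 lay nearest to the mean profile among the 9 at 0.31 and LRRC15 farthest at 4.66.

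The genes around the members, unlike the members, were not chosen by their counts, but the filter on low counts decided which were tested. Within 200 kb of the 9 genes lay 122 other annotated genes, of which 43 were tested, 23 were higher (53.5%) and 14 lower (32.6%), against 35.4% and 35.1% of all tested genes. Leaving out the 3 tested genes that overlap a member, 20 of 40 were higher and 14 lower. A change of 4-fold or more upward was found in 6 of the 43, against 4.36% of all tested genes, and 3 of these 6 are the overlapping genes described above. The others were SHISAL1 near PARVG, ENSG00000244675, 126.6 kb from LRRC15 with 11.2 and 52.73 summed counts, and DRAXIN, 131.6 kb from NPPB. All 6 passed the filter on low counts through the NTX301 libraries and could enter only as higher. Other neighbours called higher, FBXO6 and LINC02036 among them, passed in the same way. ENSG00000280434 near PARVG, called lower, passed through the DMSO libraries. DRAXIN, an axon guidance protein, was itself near-silent, with 3, 3 and 2 counts with DMSO and 113, 114 and 117 with NTX301 (log2 5.21 ± 0.24, edgeR adjusted p = 3.1e-09). Between DRAXIN and NPPB, the genes AGTRAP and CLCN6 were lower by log2 changes of -0.43 and -0.67.

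The 3 tested genes that overlap a member were all higher, with log2 changes of 4.30 (ABI3), 6.78 (ENSG00000279933) and 3.29 (ENSG00000241280). Apart from these, the 16 nearest tested genes on either side comprised 8 higher and 8 lower, with log2 changes of -1.38 to 2.65. Within 100 kb, with the 3 overlapping genes counted among the higher, 10 genes were higher and 11 lower. Of all tested genes 35.4% were higher and 35.1% lower. The surroundings of INSL4 were the only ones with several tested genes all higher: JAK2 (log2 0.45), RLN2 (1.76) and PLGRKT (0.71). Of the 79 neighbours that could not be tested, 26 had no count in any library.

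**Figure D4:**
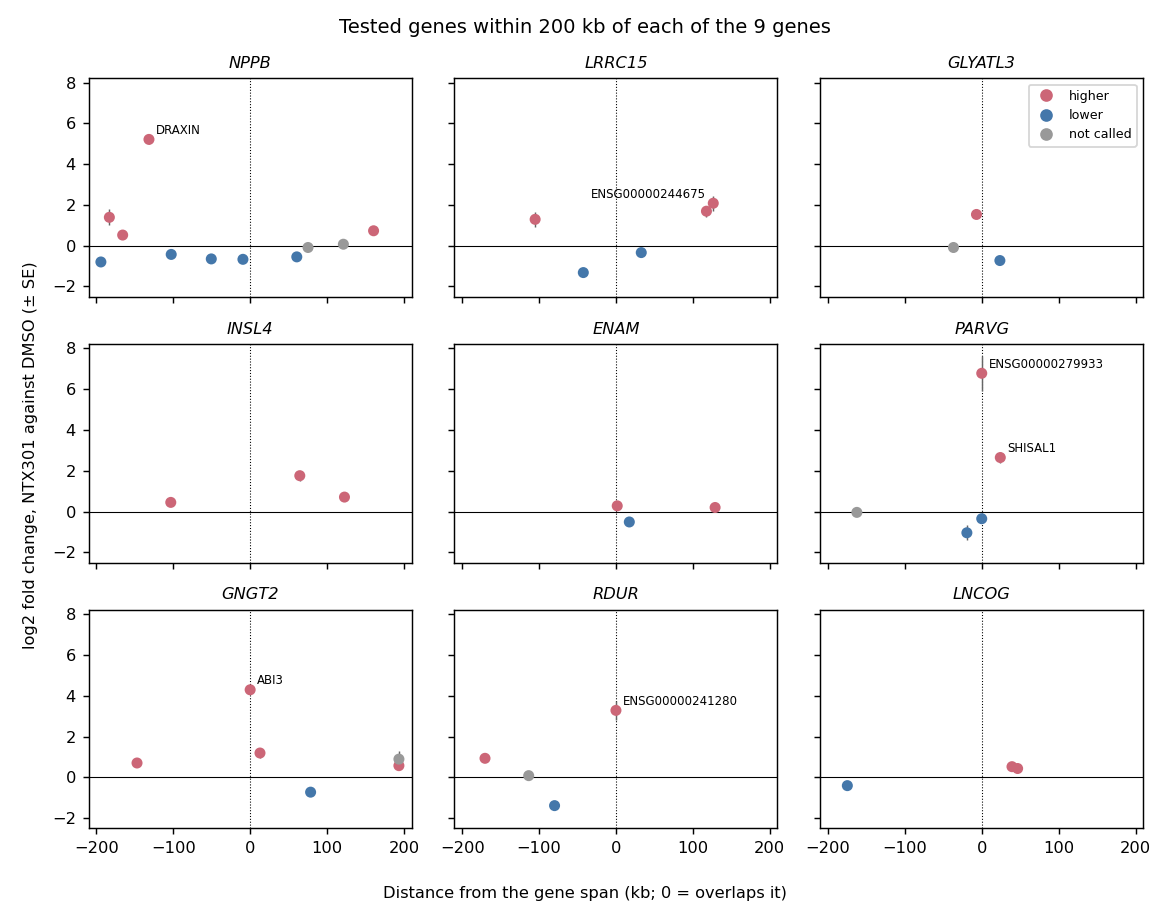
Log2 fold change with its SE (vertical axis) of tested genes against distance in kb from each of the 9 genes (horizontal axis), coloured by call in edgeR's test. The other neighbours lie between -1.38 and 2.08, and DRAXIN, SHISAL1 and the 3 overlapping genes stand above.

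Over the 11 pathway and family lists together, 86 of 136 other genes were tested, 38 were higher (44.2%) and 30 lower (34.9%), with a median log2 change of 0.08. Of the related genes 19 were lower without a scaling factor and 17 on log2(TPM + 1). Of all tested genes, 35.4% were higher and 35.1% lower, and the same shares stand beside the 5 tissue lists. A gene that passed the filter on low counts through a single group could be called only in that group's direction. Fibroblast, activated fibroblast, leukocyte and osteoblast lists had medians of 2.97, 1.44, 1.45 and 1.15 (1.11, 0.66, 1.49 and 0.83 on log2(TPM + 1)). The natriuretic list had -0.50 (-0.29 without a scaling factor, -0.22 on log2(TPM + 1)). The interferon list had -0.13, with the opposite sign without a scaling factor. Cardiac, trophoblast, RIG-I, parvin, G protein and enamel lists had 1.01, 0.81, 0.13, 0.10, 0.05 and -0.46. The relaxin, phosphoprotein and cone lists had 1 tested gene each, at 1.76, 1.02 and 0.05.

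**Figure D5:**
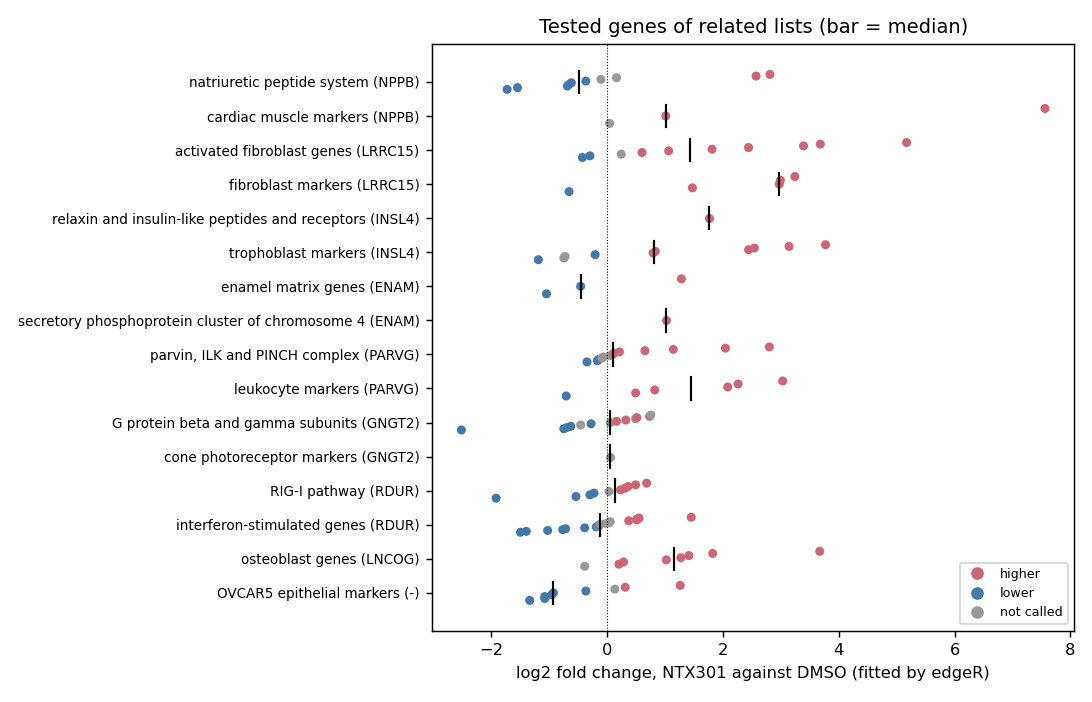
Log2 fold change fitted by edgeR (horizontal axis) of each tested gene in the lists related to the 9 genes, the 9 left out, with the list's median as a bar. Red points were higher, blue lower and grey not called, and the medians range from -0.93 for epithelial markers to 2.97 for fibroblast markers.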

How the data were processed

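RNA-seq tables of 6 OVCAR5 libraries were used, 3 with DMSO and 3 with NTX301. The authors deposited one gene table per library; per the file headers its columns are those of RSEM. The authors' expected counts are RSEM's estimates of the reads of each gene, without normalization, and the deposited TPM values are scaled by transcript length and library. Other deposited columns give gene lengths in bases, which were not used for any result. The sources used here do not give aligner version, genome build, annotation release or strand setting. Each table had 62703 entries, and 47 pseudoautosomal entries of chromosome Y were added to their X copies. Symbols were matched by stable identifier (62639 of 62656 genes), and positions came from GENCODE 29 (58220 genes).

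Expected counts were rounded and tested with edgeR 4.0.16 (R 4.3.3; filterByExpr, TMM, glmQLFit, glmQLFTest; 6 libraries, treatment as the only term), with Benjamini-Hochberg adjustment over 19029 genes and a threshold of 0.05. The script was tested on simulated data. CPM uses library totals times TMM factors of 0.9206 to 1.0834. Ratios compare summed scaled counts with an exact conditional 95% interval. Counts were called whole within 0.02. Named genes were the members, the nearest tested gene on each side, neighbours changed 4-fold, and up to 3 called genes per list with the largest change among those averaging at least 1 CPM in a group; other genes named were chosen after their values were seen or to show a list's defining markers. The members and the 17 lists were chosen with earlier results of these data known. Alternatives were DESeq2 1.42.0, its size factors, no scaling factor, no filter, limma 3.58.1 on log2(TPM + 1), a replicate block, each library left out, and other windows and limits. The 10 nM dose named in the labels was not analysed here.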

Additional observations from a re-analysis of the deposited data

How the results depend on the processing

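Counts of called genes moved with the scaling. On log2(TPM + 1) 4318 of all tested genes were lower, against 6677, and 17 related genes, against 30; without a scaling factor 19 related genes were lower. Within 100 kb 10 neighbours were higher, and within 500 kb 44 were higher and 30 lower, the 3 tested genes that overlap a member included. With a limit of 10 or 40 summed DMSO counts, 97 or 556 near-silent genes reached 1 CPM, against 224.

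The members' log2 ratios kept their sign under all alternatives run, which the choice of members by these counts had fixed in advance. Without a scaling factor they were 5.58 for LRRC15, 5.64 for GLYATL3, 5.75 for ENAM, 5.49 for PARVG and 6.15 for LNCOG. From TPM they were 6.52 for NPPB, 5.59 for LRRC15, 5.61 for GLYATL3, 6.12 for ENAM, 5.13 for PARVG, 5.07 for GNGT2 and 5.91 for LNCOG, and RDUR, at 0 TPM with DMSO, gave no value. With the counts of the overlapping gene added, an alternative chosen after seeing the data, they were 5.70 for PARVG, 4.48 for GNGT2 and 4.45 for RDUR. With each library left out in turn they ranged from 6.08 to 6.68 for NPPB, 4.91 to 5.85 for LRRC15, 5.22 to 5.91 for GLYATL3, 4.27 to 5.02 for INSL4, 5.02 to 5.94 for ENAM, 4.66 to 5.29 for PARVG, 5.24 to 5.59 for GNGT2, 4.82 to 5.62 for RDUR and 4.84 to 5.95 for LNCOG. Beyond the construction of these alternatives, the cause was not tested.

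Leaving out a library gave 6400 to 6698 genes higher and 6319 to 6645 lower, 23 to 24 neighbours higher and 13 to 15 lower, and 33 to 37 related genes higher and 29 to 31 lower. Same-numbered libraries correlated at -0.028 to 0.08 in their deviations from the group means, so the numbers were not taken as pairs. With the replicate block 6837 genes were higher and 6749 lower, 23 neighbours were higher and 15 lower, and 39 related genes were higher and 30 lower. DMSO replicates 1 and 3 correlated best with their own numbers, and DMSO replicate 2 with NTX301 replicate 3. Of 59 neighbours and related genes named by the rule given under the processing, 57 kept their call under every alternative; the exceptions were ATP13A3 and PARVB. Among genes named outside that rule, CD37 and PLAC8 also lost theirs under the alternatives given beside them. RIGI was followed only through the count of its list. The few DMSO counts limit the precision of every member ratio.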
